A study of Mus musculus with 4 samples.

Results

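Binding of the transcription factor Runx3 was examined at the mouse genes for histone lysine methyltransferases (Kmt), histone lysine demethylases (Kdm), histone deacetylases (Hdac), SWI/SNF-related remodelling proteins (Smarc), AT-rich interaction domain proteins (Arid) and chromodomain helicases (Chd). Members were the protein-coding genes of a RefSeq table of GRCm38.p6 (mm10) whose symbols start with one of these 6 stems directly followed by a digit or, for Smarc, by a letter. The rule used no measured value, though the members were chosen with earlier results of these data known. It gave 70 of 21883 protein-coding genes, namely 8 Kmt, 18 Kdm, 11 Hdac, 13 Smarc, 10 Arid and 10 Chd genes. The stems also take in genes with other functions, since a shared stem is a name and not an activity.

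All libraries came from CD8 T cells of the spleens of wild-type adult mice, taken by selection for CD8a on magnetic beads, with 1 library in each of 4 groups. In chromatin immunoprecipitation (ChIP), sonicated chromatin of 50000000 frozen cells pooled from 5 mice was captured with a rabbit serum against Runx3 at 1 in 200, and the whole cell extract of the ChIP material was the peak caller's control. In CUT&RUN, where the antibody tethers a nuclease that releases the DNA around its target, 150000 fresh cells of 1 mouse received that serum at 1 in 200; a CUT&RUN library with normal rabbit serum was not analysed here. After duplicates were removed, the ChIP list (13166 peaks) rested on 9532996 fragments and the CUT&RUN list (15891 peaks) on 14068364, with no replicates, so no test between assays was possible.

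Runx3 belongs to the RUNX family, whose members bind DNA as a dimer with the Cbfb subunit, and it is needed for the CD8 T cell lineage and for the silencing of Cd4 there. Histone methyltransferases and demethylases write and remove methyl marks on lysines of the histone tails. Deacetylases remove acetyl marks, and remodelling complexes use ATP to slide, eject or exchange nucleosomes. A RUNX factor can bring such complexes to its targets. Here the question is whether Runx3 sat at the genes that encode them. A peak is a site of binding, and neither RNA nor protein levels were measured.

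Runx3 summits lay at or near most of these genes. In ChIP, 37 of the 70 (52.9%) had a summit within 1 kb of either end of the gene span, against 22.9% of all protein-coding genes. In CUT&RUN the count was 34 (48.6%) against 27.2%. Both lists placed a summit at an end of 25 members (35.7%), against 18.3% of all genes, and all 25 had end peaks that overlapped between the lists. At least 1 list did so at 46 members (65.7%), against 31.8%.

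Within the gene span plus 10 kb on each side, 56 members (80.0%) had a ChIP summit, against 40.2% of all protein-coding genes. For CUT&RUN the count was 60 (85.7%) against 45.1%, for both lists 54 (77.1%) against 34.9%, and for either list 62 (88.6%) against 50.5%. The members are long genes, with a median span of 51.7 kb against 17.2 kb for all. When the shares of all genes were weighted to the members' span classes, the ChIP background rose to 25.9% at ends and 47.0% within 10 kb, and the CUT&RUN background to 30.3% and 52.4%. For both lists it rose to 20.6% and 40.9%. The members' shares lay above those values too. Per 100 kb of span plus 10 kb, the members held 1.8 ChIP and 2.17 CUT&RUN summits, against 1.03 and 1.24 over all protein-coding genes.

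**Figure D1:**
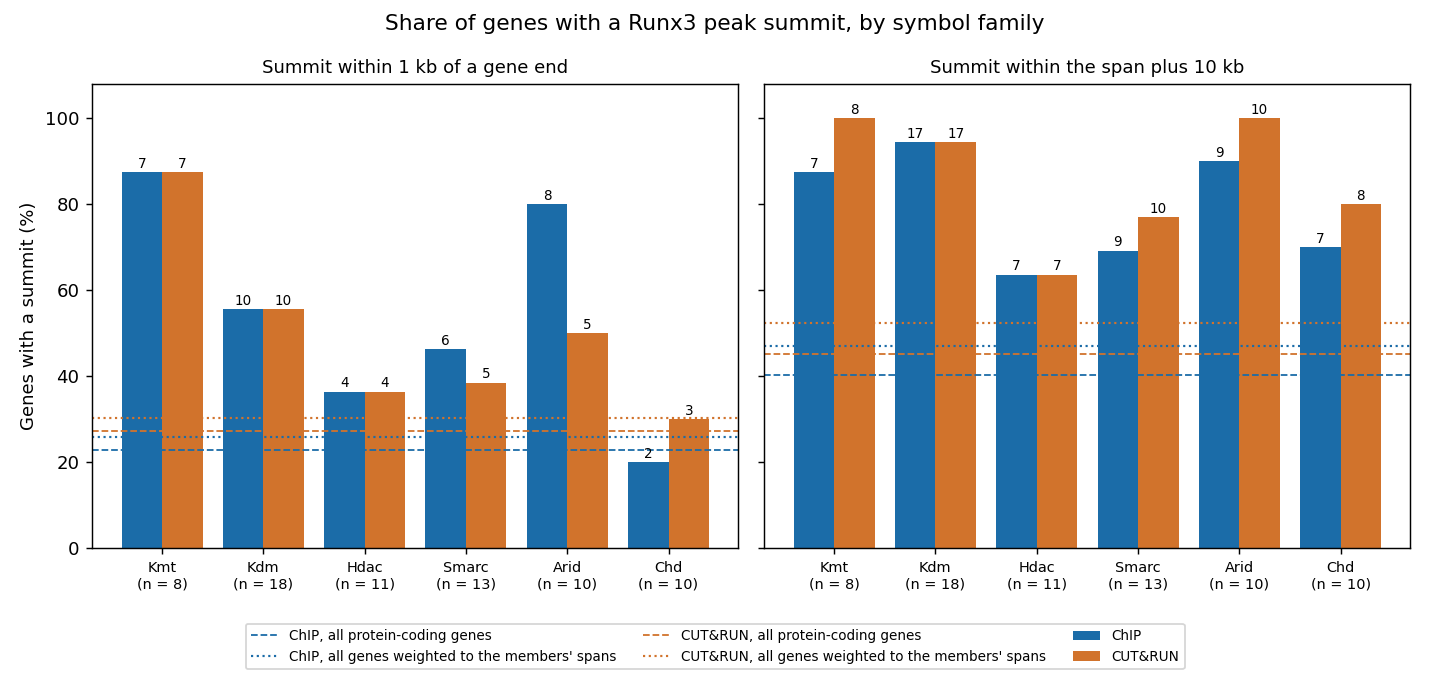
Share of genes (percent) with a ChIP (blue) or CUT&RUN (orange) summit within 1 kb of a gene end (left) or within the span plus 10 kb (right), by symbol family, with the number of genes above each bar, and with the share of all protein-coding genes before (dashed) and after (dotted) weighting to the members' spans. Kmt genes reached 87.5% at ends in each list taken alone, while 2 of 10 Chd genes in ChIP and 3 in CUT&RUN had one there.

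An end summit in at least 1 list was present at all 8 Kmt genes, 9 of 10 Arid, 12 of 18 Kdm, 9 of 13 Smarc, 5 of 11 Hdac and 3 of 10 Chd genes, against 31.8% of all protein-coding genes (35.6% after weighting to the members' spans). The Chd share, 30.0%, was thus near that background. End summits of both lists stood at 6 of 8 Kmt genes and at 2 of 13 Smarc genes (15.4%), against 18.3% of all genes, so the Smarc share was near the background. These are descriptions of small families in 1 library per assay, and the differences between families were not tested.

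**Figure D2:**
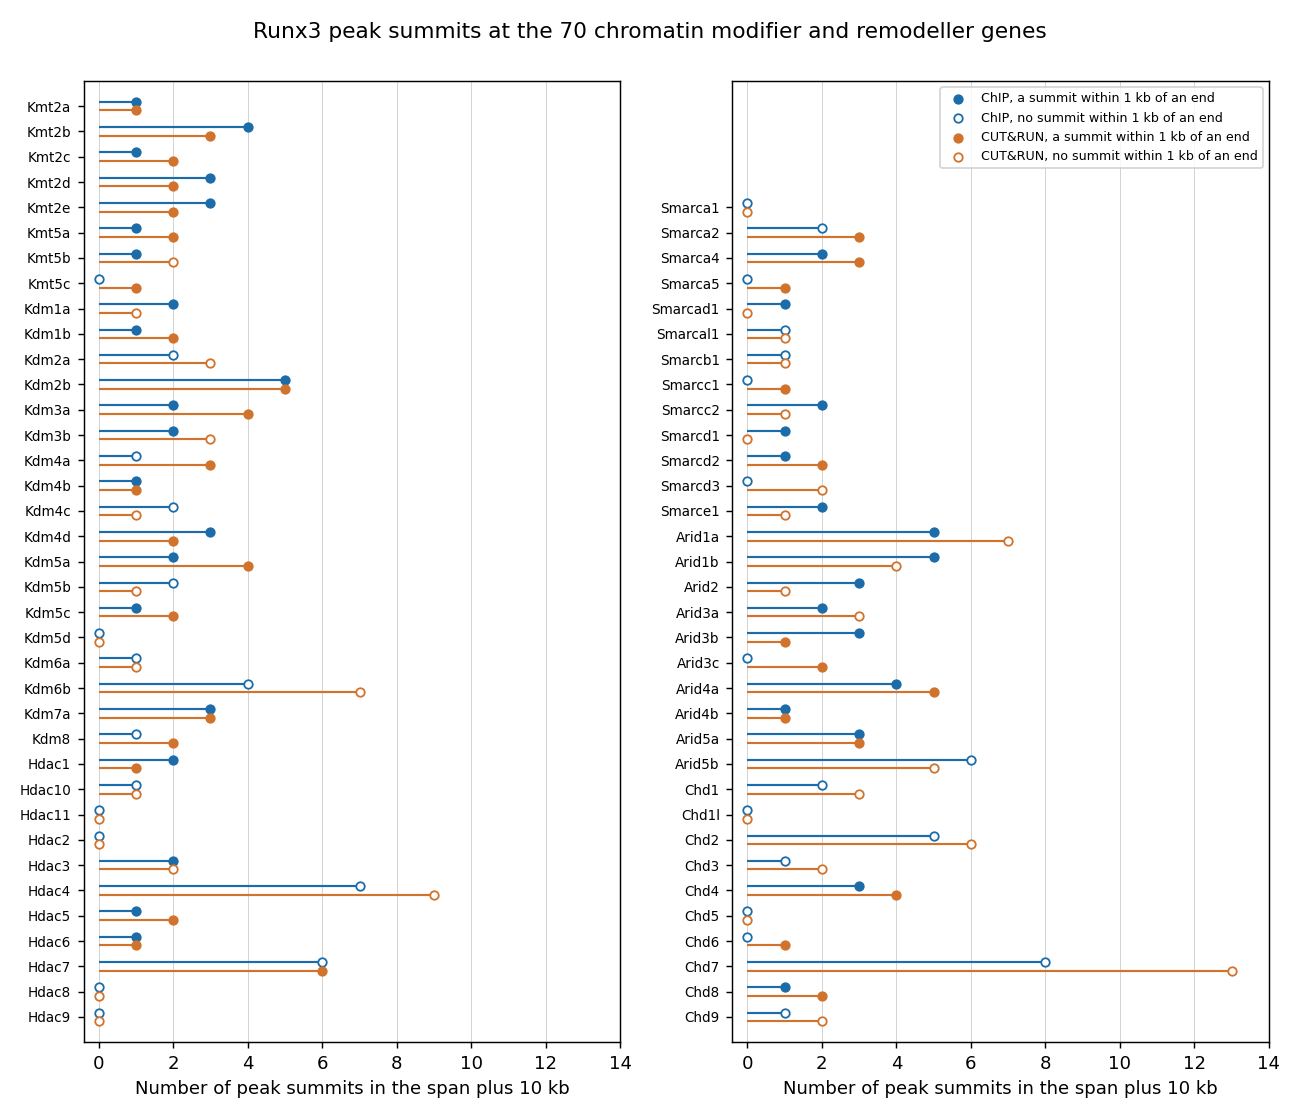
Number of ChIP (blue) and CUT&RUN (orange) summits in the span plus 10 kb of each of the 70 members, by family, with filled points where at least 1 of them lay within 1 kb of a gene end. Chd7 has the most, 8 in ChIP and 13 in CUT&RUN, all with open points, and 8 members sit at 0 in both lists.

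Most end summits whose orientation was known lay at the promoter. RefSeq promoter entries (GRCm38.p6) matched 52 of the 70 members and gave the strand of their genes. Of the end summits at these members, 28 of 30 in ChIP and 32 of 34 in CUT&RUN were at the end where transcription starts. The same share over all protein-coding genes is not given here, so these counts do not set the members apart. Within 1 kb of a listed start, 35 ChIP summits had a median position 65 bp upstream, and 25 of them (71.4%) were upstream. The 41 CUT&RUN summits had a median 88 bp upstream, and 32 (78.0%) were upstream. Over all protein-coding genes the medians were 36 bp upstream in ChIP (60.6% upstream) and 58 bp upstream in CUT&RUN (70.2% upstream).

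**Figure D3:**
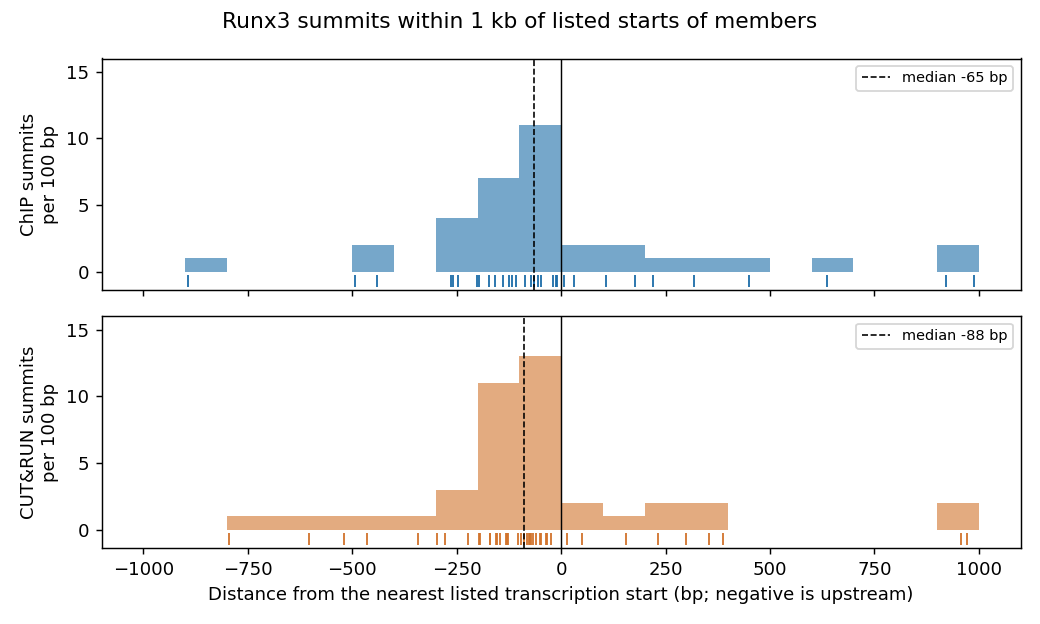
Number of member summits per 100 bp (vertical axis) against the distance in bp from the nearest listed transcription start (negative is upstream) for ChIP (top) and CUT&RUN (bottom), with a tick for each summit. Both sets peak just upstream of the start, with medians (dashed) of -65 bp and -88 bp.

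The promoters of 5 starts are shown because they held summits of both lists in the 300 bp window (250 bp upstream to 50 bp downstream) together with a RUNX core hexamer. The cores searched were TGTGGT and TGCGGT on both strands, which on the other strand read ACCACA and ACCGCA; no 2 of these can start at the same base. A promoter of Kmt2a, with summits of both lists and no core, is shown for contrast. Only the 250 upstream bases are printed, 5′ to 3′ in the direction of transcription, with the cores in capitals. In Chd4, Chd8, Kdm2b and Kmt2a the outer part of the table's gene span reaches into the printed window.
Kmt5a, chr5:124439680-124439929, plus strand: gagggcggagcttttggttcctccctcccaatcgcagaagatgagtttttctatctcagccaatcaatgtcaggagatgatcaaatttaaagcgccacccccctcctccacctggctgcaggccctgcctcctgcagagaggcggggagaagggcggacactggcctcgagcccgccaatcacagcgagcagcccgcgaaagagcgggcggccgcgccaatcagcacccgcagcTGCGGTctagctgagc
Chd4, chr6:125095913-125096162, plus strand: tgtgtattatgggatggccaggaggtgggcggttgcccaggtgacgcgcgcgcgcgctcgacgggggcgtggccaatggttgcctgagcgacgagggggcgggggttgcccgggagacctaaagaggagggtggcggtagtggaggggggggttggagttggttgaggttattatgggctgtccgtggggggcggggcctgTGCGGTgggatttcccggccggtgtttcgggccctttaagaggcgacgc
Chd8, chr14:52257761-52258010, minus strand: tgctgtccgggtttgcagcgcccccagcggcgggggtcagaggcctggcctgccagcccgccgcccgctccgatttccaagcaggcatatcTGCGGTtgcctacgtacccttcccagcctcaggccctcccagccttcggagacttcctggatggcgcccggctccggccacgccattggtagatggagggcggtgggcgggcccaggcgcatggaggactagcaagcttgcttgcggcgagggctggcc
Kdm2b, chr5:122989100-122989349, minus strand: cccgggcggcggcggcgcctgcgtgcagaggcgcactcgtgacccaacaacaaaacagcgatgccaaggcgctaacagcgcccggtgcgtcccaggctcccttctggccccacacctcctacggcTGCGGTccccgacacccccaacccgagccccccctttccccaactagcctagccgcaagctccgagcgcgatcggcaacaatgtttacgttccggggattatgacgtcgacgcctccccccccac
Smarcal1, chr1:72583001-72583250, plus strand: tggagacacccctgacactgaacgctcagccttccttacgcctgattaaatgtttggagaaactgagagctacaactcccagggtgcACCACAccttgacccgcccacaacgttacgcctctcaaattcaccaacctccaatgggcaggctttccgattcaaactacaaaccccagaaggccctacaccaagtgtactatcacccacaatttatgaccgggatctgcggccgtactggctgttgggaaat
Kmt2a, chr9:44881290-44881539, minus strand: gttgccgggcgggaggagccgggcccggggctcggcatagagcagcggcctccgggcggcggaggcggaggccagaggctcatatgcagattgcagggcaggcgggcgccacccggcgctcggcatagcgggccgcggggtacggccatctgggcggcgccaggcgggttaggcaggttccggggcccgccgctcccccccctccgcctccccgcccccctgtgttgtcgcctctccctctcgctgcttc

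In Kmt5a, which encodes the enzyme that places a single methyl group on lysine 20 of histone H4, the core TGCGGT began 16 bp upstream of the start and the ChIP summit lay inside it, 13 bp upstream. Its ChIP pileup, the number of fragments over the summit, was 12 (exact 95% Poisson interval 6.2 to 21), rank 6476 of 13166. The CUT&RUN summit was 47 bp upstream with a pileup of 58 (44 to 75), rank 1934 of 15891. In Chd4 the core began 49 bp upstream, and the summits lay 65 bp (ChIP) and 75 bp (CUT&RUN) upstream. The cores of Chd8 and Kdm2b lay 45 bp and 54 bp from the ChIP summits. The internal start of Smarcal1, an annealing helicase, was nearest to an end of Marchf4, and had the reverse form ACCACA 163 bp upstream, 139 bp from the ChIP summit. At Kmt2a the summits lay 117 bp (ChIP) and 129 bp (CUT&RUN) upstream in a window with no core.

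Over the 71 listed promoters of the members, 16 (22.5%) held a core, close to the 21.6% of all protein-coding promoters of the same length. Of the 16 member promoters with summits of both lists, 5 (31.2%) held a core, against 40.0% of the 2110 such protein-coding promoters. Of the 38 member promoters with no summit, 6 (15.8%) held a core, against 19.5%. A match is a description of letters, and a window without one says nothing about the factor. In this window 22 member promoters (31.0%) had a ChIP summit and 27 (38.0%) a CUT&RUN summit, against 13.9% and 19.8% of protein-coding promoters.

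Among the writers, all 5 Kmt2 genes (Kmt2a to Kmt2e, the MLL family, most of which methylate lysine 4 of histone H3) had an end summit in both lists, against 18.3% of all genes. Ranks below count from the lowest q within a list, and pileups are compared only within a list. Kmt2e had the highest CUT&RUN end pileup of the Kmt genes, 93 (75.1 to 114, rank 1078), and a ChIP pileup of 26 (17 to 38.1, rank 1072), at the lower end of chr5:23433036-23504235. Kmt2d (chr15:98831669-98874077) had a ChIP pileup of 37 (26.1 to 51, rank 289) and a CUT&RUN pileup of 38 (26.9 to 52.2, rank 4662). That pair lay at the end opposite its start, nearest to Prkag1, a regulatory subunit of the energy sensor AMPK, and no summit was within 1 kb of the outer start of Kmt2d. Kmt2a had pileups of 13 in ChIP and 28 in CUT&RUN. Kmt2b and Kmt2c were lower, at 8 and 10 in ChIP for the pairs that overlapped and 21 and 19 in CUT&RUN.

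The H4 lysine 20 methyltransferases were less uniform. Kmt5a had the shared start pair described above. Kmt5b, which adds further methyl groups to that lysine, had a ChIP summit at its end with a pileup of 12 and CUT&RUN summits only deeper in the gene. Kmt5c, its paralog, had a CUT&RUN end summit with a pileup of 33 (22.7 to 46.3, rank 6039), 61 bp upstream of its start, and no ChIP summit within 10 kb.

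Among the erasers, 17 of 18 Kdm genes (94.4%) had summits of both lists within 10 kb. The share of all protein-coding genes was 34.9%, or 40.9% after weighting to the members' spans. At an end, 8 Kdm genes (44.4%) had summits of both lists, against 18.3% (20.6% after weighting). Kdm3a, a demethylase of H3 lysine 9, had a ChIP summit with a pileup of 30 (20.2 to 42.8, rank 690), 493 bp upstream of its start. Its CUT&RUN summits lay 154 bp and 519 bp upstream, with pileups of 73 (57.2 to 91.8, rank 1508) and 51. Kdm5a, a demethylase of H3 lysine 4, had the highest ChIP end pileup of all members, 59 (44.9 to 76.1, rank 42). That summit was nearest to the end of the neighbouring gene Ccdc77, and the 3 CUT&RUN summits at the Kdm5a end had pileups of 23, 28 and 22 (the best rank was 7230). Kdm2b, a CpG island-binding demethylase of a variant Polycomb complex, had a start pair of 25 (rank 1206) in ChIP and 55 (rank 3350) in CUT&RUN. A second pair lay 5450 bp upstream of that start in ChIP, with pileups of 30 (rank 685) and 95 (76.9 to 116, rank 768). Kdm4b, a demethylase of H3 lysines 9 and 36 that was picked out here after its values were seen, had a low ChIP pileup of 9 (rank 10066) and a high CUT&RUN pileup of 87 (69.7 to 107, rank 876).

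Other Kdm genes had summits at an end in 1 list or none. Kdm1a (LSD1), which removes mono- and dimethyl marks from H3 lysine 4, had a ChIP end summit with a pileup of 9 (rank 10465). Its shared pair lay inside the gene, with pileups of 15 (rank 4145) and 38 (rank 3564), nearest to the end of Luzp1. Kdm3b had a ChIP end summit of 23 (14.6 to 34.5, rank 1469), and its closest CUT&RUN summit to an end was 1.18 kb away. Kdm8 and Kdm4a had end summits in CUT&RUN alone, with best pileups of 42 (30.3 to 56.8, rank 3043) and 36 (rank 4677). The H3 lysine 27 demethylases Kdm6a and Kdm6b had no end summit in either list and shared pairs inside the gene. In Kdm6a the pair lay 125 bp (ChIP, pileup 10) and 128 bp (CUT&RUN, pileup 35) upstream of a listed internal start. Kdm6b had 3 shared pairs in a span of chr11:69398508-69420367, with ChIP pileups of 15, 12 and 8 and CUT&RUN pileups of 27, 54 and 18.

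Among the deacetylases, 7 of 11 genes (63.6%) had summits of both lists within 10 kb, against 34.9% of all protein-coding genes (40.9% after weighting to the members' spans). Hdac1, Hdac5 and Hdac6 (27.3%) had them at an end, against 18.3% (20.6% after weighting). Pooled over their windows, the 11 Hdac genes held 1.13 ChIP and 1.24 CUT&RUN summits per 100 kb, close to the 1.03 and 1.24 of all genes. That pooled value includes the window of Hdac9, whose span of 870 kb is the longest of all members and held no summit. It therefore does not describe the other Hdac genes. Hdac1, a class I enzyme of the Sin3 and NuRD co-repressors, had a ChIP pileup of 9 (4.12 to 17.1, rank 10451) and a CUT&RUN pileup of 49 (36.3 to 64.8, rank 2061). Its close paralog Hdac2 had no summit within 10 kb; the nearest to its span were 567 kb (ChIP) and 262 kb (CUT&RUN) away. Hdac3, the enzyme of the NCoR and SMRT co-repressors, had a ChIP end summit of 7 (rank 12818), within 1 kb of Rell2, and no CUT&RUN end summit. A shared pair near Hdac3, with pileups of 22 (rank 1656) and 27, was nearest to the actin regulator gene Diaph1. Hdac5 had start pileups of 13 (rank 5151) and 23 (rank 7133), and Hdac6, the cytoplasmic tubulin deacetylase, of 12 (rank 6680) and 29 (rank 6068).

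The class IIa genes Hdac4 and Hdac7, whose proteins shuttle between nucleus and cytoplasm in a signal-dependent way, had many internal summits. Hdac4 (chr1:91928779-92195702) had 7 ChIP summits, 6 of them in peaks shared with CUT&RUN, and 9 CUT&RUN summits, none at an end. Its best pairs had pileups of 28 (rank 790) and 115 (94.9 to 138, rank 249), and of 26 (rank 999) and 115 (rank 215). Another pair, of 10 and 62, lay 140 bp and 222 bp upstream of a listed internal start. Hdac7 (chr15:97792661-97844502), known for its role in thymocytes, had 6 ChIP summits, 5 shared, and 6 CUT&RUN summits. The highest ChIP pileup there was 25 (16.2 to 36.9, rank 1160), and the highest in CUT&RUN was 67 (51.9 to 85.1, rank 1770), at different sites. A CUT&RUN summit of 20 (rank 14488) was the only end summit of Hdac7. Hdac9, the longest member, had none within 10 kb.

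The 12 SWI/SNF subunit genes (9 Smarc genes and Arid1a, Arid1b and Arid2) had an end summit at 8 genes in ChIP (66.7%, against 22.9% of all genes) and at 4 in CUT&RUN (33.3%, near the 27.2% of all genes). Smarca4 and Smarcd2 had one in both lists (16.7%, against 18.3%). All 12 had a summit of at least 1 list within 10 kb, against 50.5% of all genes (58.6% after weighting to the members' spans). Smarca4, the BRG1 ATPase of these complexes, had a ChIP summit of 11 (5.49 to 19.7, rank 7831) and a CUT&RUN summit of 31 (21.1 to 44, rank 6032), 11 bp and 147 bp upstream of its start. Smarca2, the alternative ATPase, had a CUT&RUN end summit of 21. Its internal pair, picked out after its values were seen, had pileups of 27 (rank 943) and 81 (64.3 to 101, rank 653). Smarcd2 had a low pair of 8 (rank 11287) and 20 (rank 10552), nearest to Tcam1. Arid1a, a DNA-binding subunit of the BAF form of the complex, had a ChIP end summit of 14 (rank 4802) and an internal pair of 18 (rank 2727) and 32. Arid1b showed how the 1 kb limit acts: its ChIP summit lay 0.997 kb and its overlapping CUT&RUN summit 1.01 kb from the end.

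Among the other Smarc genes, Smarcc2 had a ChIP summit of 10 at its end, and its much higher pair of 37 (rank 282) and 96 (77.8 to 117, rank 560) was nearest to the myosin light chain gene Myl6b. Smarcb1 had no end summit, and its pair of 12 (6.2 to 21, rank 5866) in ChIP and 102 (83.2 to 124, rank 461) in CUT&RUN lay nearest to Derl3, a gene of endoplasmic reticulum protein degradation. These 2 were picked out after their values were seen. Of the ISWI ATPases, Smarca5 had a CUT&RUN end summit of 18 and Smarca1 had no summit of either list within 10 kb. Smarcad1 had a ChIP end summit of 18 (rank 2767), 8 bp downstream of its start, and no CUT&RUN summit within 10 kb.

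The other Arid genes included several of the best end pairs. Arid5a, an RNA-binding protein known for stabilising inflammatory mRNAs, had 3 shared pairs in and around chr1:36307733-36324037. The strongest, 318 bp (ChIP) and 298 bp (CUT&RUN) downstream of the start, had pileups of 26 (17 to 38.1, rank 997) and 66 (51 to 84, rank 2074). Arid4b, a subunit of the Sin3 deacetylase complex, had 19 (11.4 to 29.7, rank 2329) in ChIP and 94 (76 to 115, rank 671) in CUT&RUN, nearest to an end of Ggps1. Arid4a, its paralog, had an end summit of 18 (rank 2596) in ChIP and end summits of 30 and 49 in CUT&RUN, and 4 of its ChIP peaks were shared. Arid3a had a ChIP end summit of 22 (13.8 to 33.3, rank 1591) without a CUT&RUN partner. Arid5b, a partner of the demethylase Phf2, had no end summit, and the highest ChIP pileups inside any member's span at over 1 kb from an end, 48 (35.4 to 63.6, rank 93) and 45 (32.8 to 60.2, rank 131). The CUT&RUN pileups at those sites were 42 (rank 4912) and 33 (rank 4533).

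Of the Chd genes, Chd4 and Chd8 had start pairs. Chd4, the ATPase of NuRD, had 10 (4.8 to 18.4, rank 9071) and 41 (29.4 to 55.6, rank 3926) at its start. A pair 3350 bp downstream of the start had the higher ChIP pileup, 35 (24.4 to 48.7, rank 407), and a CUT&RUN pileup of 29 (rank 7072). Another Chd4 pair, of 37 (rank 308) and 59 (rank 1885), lay beyond the other end and was nearest to Nop2. Chd8 had 19 (11.4 to 29.7, rank 2336) and 74 (58.1 to 92.9, rank 1359). Chd6 had a CUT&RUN end summit of 26 and no ChIP summit within 10 kb.

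**Figure D4:**
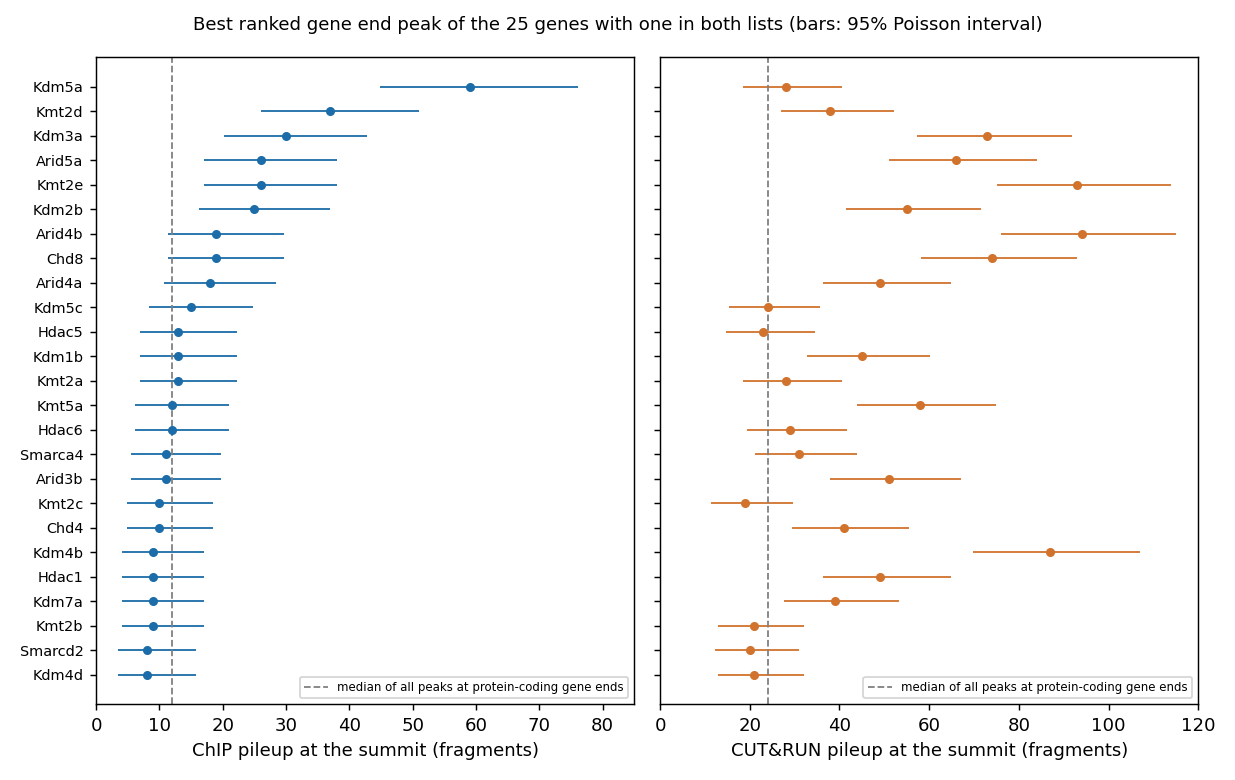
Pileup in fragments (horizontal axis) of the best ranked gene end peak of each of the 25 members with one in both lists, for ChIP (left) and CUT&RUN (right), ordered by ChIP rank, with exact 95% Poisson intervals as bars and the median of all protein-coding end peaks dashed (12 and 24 fragments). Kdm5a stands highest in ChIP at 59 and Arid4b in CUT&RUN at 94, so the order in one list is not that of the other.

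Chd7 (chr4:8690402-8868449), a remodeller linked to CHARGE syndrome, had more ChIP peaks shared with CUT&RUN than any other member, and no summit at either end. All 8 of its ChIP peaks overlapped a CUT&RUN peak, and CUT&RUN had 13 summits. The ChIP pileups ran from 8 to 37 and the CUT&RUN pileups from 12 to 104. Both lists had their highest summit at the same site, 57258 bp (ChIP) and 57273 bp (CUT&RUN) inside the nearer end. The ChIP pileup there, at position 8811191, was 37 (26.1 to 51, rank 298), and the CUT&RUN pileup, at position 8811176, was 104 (85 to 126, rank 527). Of all protein-coding genes, 22 (0.101%) had at least 8 shared ChIP summits. At 3 or more shared ChIP summits stood 11 members (15.7%), against 3.35% of all genes and 5.26% after weighting to the members' spans. At 5 or more stood 3 members (4.29%), Chd7, Hdac4 and Hdac7, against 0.612% and 1.19%. Chd2, a chromatin remodeller, was among the 6 members with 3; its pairs had ChIP pileups of 34, 15 and 18 and CUT&RUN pileups of 22, 53 and 41, and the first was nearest to Rgma.

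**Figure D5:**
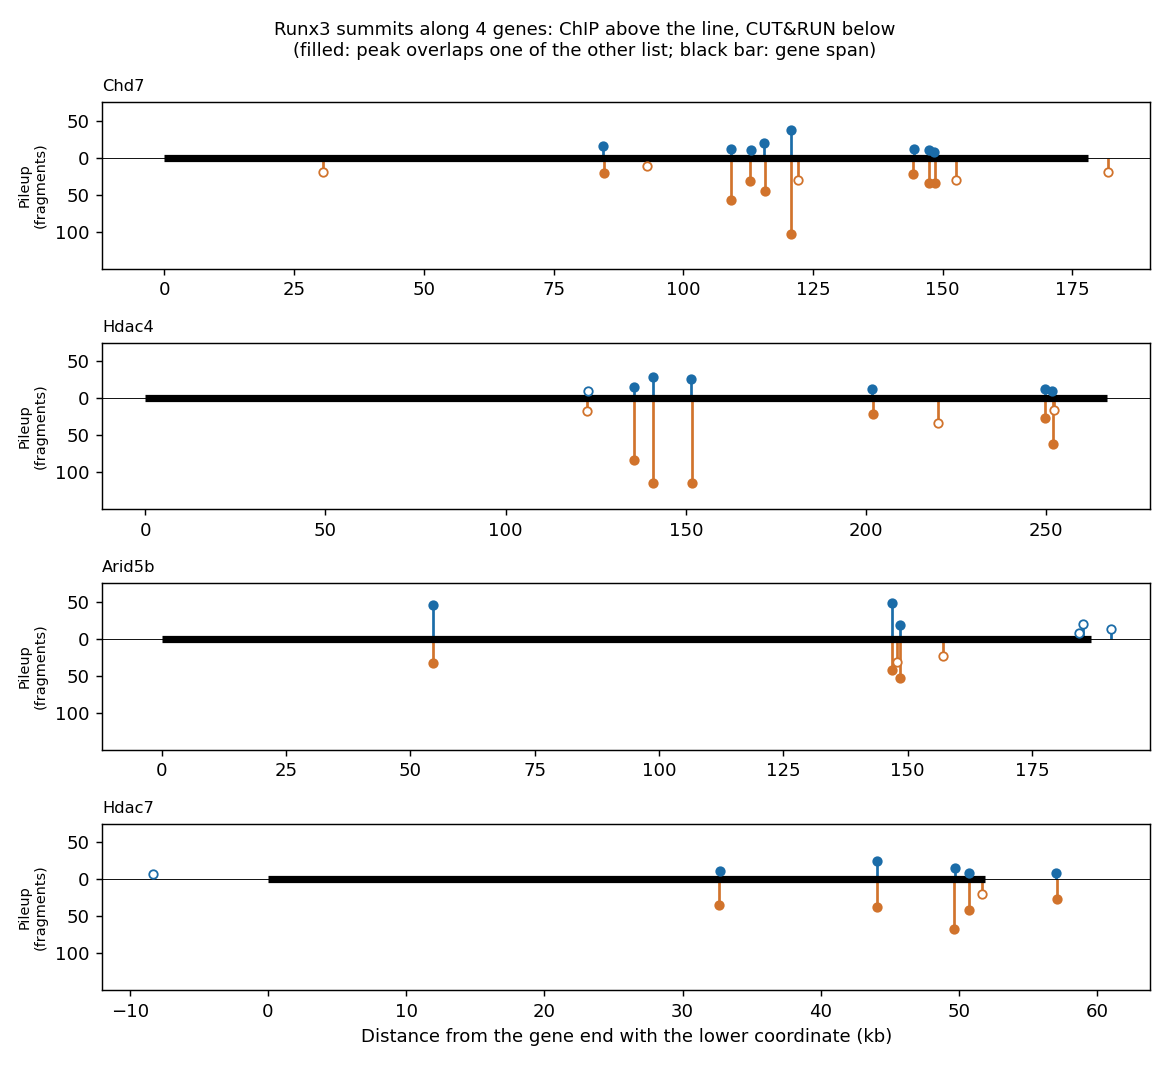
Summit pileup in fragments (ChIP above the line, CUT&RUN below) against the distance in kb from the gene end with the lower coordinate for Chd7, Hdac4, Arid5b and Hdac7, with filled points where the peak overlaps one of the other list. In Chd7 and Hdac4 the high summits of both lists sit together inside the span, up to 104 and 115 fragments in CUT&RUN.

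Peaks away from gene ends made up most of the members' binding. In ChIP, 43 of 135 summits in the windows (31.9%) lay at ends, 67 lay deeper inside the span and 25 outside. In CUT&RUN 44 of 163 (27.0%) lay at ends, 82 deeper inside and 37 outside. Over all protein-coding genes the share at ends was 44.4% in ChIP and 45.2% in CUT&RUN, genes with shorter spans. A summit at an internal start counts as internal here: Hdac4, Kdm4c, Kdm6a and Smarcal1 had no end summit but summits of both lists within 1 kb of a listed internal start.

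Peak heights at the members were set beside those of all protein-coding genes. The median ChIP pileup was 12 at member ends, equal to that of all protein-coding end peaks. The CUT&RUN median at ends was 29.5 (quartiles 21.75 and 49.5), against 24. In the ChIP list, 21 of 135 member peaks (15.6%) stood in the top 10% by rank, against 9.56% of all peaks near protein-coding genes. In CUT&RUN the count was 15 of 163 (9.2%) against 8.67%. All of these top peaks overlapped a peak of the other list, and 7 of the 21 in ChIP and 4 of the 15 in CUT&RUN lay nearer to an end of another gene than to the member.

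Some of the highest peaks counted for a member lay nearer to a neighbouring gene. Near Hdac10, picked out after its values were seen, a pair of 59 (44.9 to 76.1, rank 40) and 147 (124 to 173, rank 100) lay 2853 bp (ChIP) and 2879 bp (CUT&RUN) outside the span and was nearest to Mapk12. Over the windows, 28 of 135 ChIP and 34 of 163 CUT&RUN summits were nearest to an end of another protein-coding gene. At ends, 12 ChIP summits at 10 members and 10 CUT&RUN summits at 8 members were also within 1 kb of another gene's end, as at Kdm1b and Tpmt, Kdm4d and Cwc15, and Kmt2b and Zbtb32. Which gene such a summit serves was not tested.

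Of the 135 ChIP peaks, 92 (68.1%, exact 95% Clopper-Pearson interval 59.6% to 75.9%) overlapped a CUT&RUN peak by at least 1 bp, against 67.5% for all protein-coding genes. In the other direction it was 96 of 163 (58.9%, 50.9% to 66.5%) against 59.2%. Summits of the shared pairs were a median 33 bp apart. At ends, 12 members (17.1%, against 4.65% of all protein-coding genes) had a summit in ChIP alone (Arid1a, Arid1b, Arid2, Arid3a, Hdac3, Kdm1a, Kdm3b, Kmt5b, Smarcad1, Smarcc2, Smarcd1 and Smarce1). In CUT&RUN alone it was 9 members (12.9%, against 8.87%), namely Arid3c, Chd6, Hdac7, Kdm4a, Kdm8, Kmt5c, Smarca2, Smarca5 and Smarcc1. Only at Arid1b did such an end peak overlap a peak of the other list. The assays differed in cell number, freezing, mice and peak calling at once, and the part of these in such differences cannot be told apart.

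Within 10 kb, Smarcad1 and Smarcd1 had ChIP summits alone (2.86%, against 5.34% of all genes). Arid3c, Chd6, Kmt5c, Smarca5, Smarcc1 and Smarcd3 had CUT&RUN summits alone (8.57%, against 10.2%), and both shares were near the background. No summit of either list fell within 10 kb of Chd1l, Chd5, Hdac2, Hdac8, Hdac9, Hdac11, Kdm5d and Smarca1. Chd5 just missed the limit, with its nearest summits 12.7 kb (ChIP) and 12.8 kb (CUT&RUN) away. The ChIP summit nearest to Arid3c was 10.3 kb away, while that of Kdm8 at 8.65 kb was the farthest to count. In CUT&RUN the farthest to count was that of Smarcc2 at 8.22 kb, and that of Smarcd1 at 11.8 kb did not. A gene without a peak is one where none passed the peak caller's threshold at this depth.

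A wider list of 69 other chromatin genes, with the Nsd, Kat and Sirt enzymes, Ino80, the Polycomb genes Ezh2, Eed and Suz12 and others, gave the following counts. At ends, 39 (56.5%) had a ChIP summit, 43 (62.3%) a CUT&RUN summit and 34 (49.3%) both. The shares of all protein-coding genes there were 22.9%, 27.2% and 18.3%. Within 10 kb the counts were 53 (76.8%), 59 (85.5%) and 51 (73.9%), against 40.2%, 45.1% and 34.9% of all genes. The median span of the wider list was 38.4 kb, against 51.7 kb for the members and 17.2 kb for all genes. The members' end share in both lists, 35.7%, was lower than the 49.3% of these genes; the difference was not tested. Nsd3, a methyltransferase of H3 lysine 36, had 8 ChIP and 7 CUT&RUN summits, with a best ChIP pileup of 30 (rank 699) and a best CUT&RUN pileup of 97 (rank 450).

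As a check of the cells, the 7 CD8 T cell marker genes all had a summit of both lists within 10 kb. Binding at a marker is not its expression, and markers of other cell types are not reported, so this does not measure the purity of the cells. No peak whose expected background was over 10 times its list's median was counted at a member in either list. Such peaks were rare, 55 of 13166 in ChIP and 198 of 15891 in CUT&RUN. In ChIP, 97.6% of peaks had an expected background within 0.1 times of the median, and the CUT&RUN list had no control. Their absence at the members therefore says little.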

How the data were processed

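Of the 4 libraries 2 gave peak lists, anti-Runx3 ChIP and anti-Runx3 CUT&RUN, and the unit of analysis was the gene. Per the submitters' processing notes, the authors aligned reads with Bowtie to mm10 and called peaks with MACS2. Per the file headers, MACS2 2.1.1.20160309 kept at most 1 fragment per position, with a q of 0.05 against the whole cell extract for ChIP and of 1e-05 with no control for CUT&RUN, whose alignment name refers to nucleosome-free fragments. Of 48285251 ChIP fragments 9532996 were kept, and of 17896991 CUT&RUN fragments 14068364. For Bowtie, the version is not given in the sources used here. Pileup, as deposited, is a coverage signal in fragments, and the deposited −log10 p-values and −log10 q-values are the caller's. The deposited fold enrichment is the caller's ratio of the pileup, with 1 added, to the expected background. All these deposited values are each peak's own, given by the authors and used only within a list. Expected background was taken here as the pileup plus 1, divided by the fold enrichment, so it holds any constant that the caller added.

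Peaks were ranked by q, then pileup, then peak number. A summit was at an end within 1 kb of either end of the gene's span in a RefSeq table of GRCm38.p6, which gives no strand and no exons, so exonic and intronic positions are not given. Backgrounds were taken over all 21883 protein-coding genes, also weighted to the members' span classes. Intervals cover counting error only and hold no spread between libraries. The Poisson intervals also treat fragments as independent, which PCR fragments need not be even with 1 kept per position, so they may be too narrow. The counting of summits at genes was tested on simulated summit positions. The counting of overlaps between the lists was not tested in that way. Python 3.11.15, pandas 2.3.3, numpy 2.4.6 and scipy 1.17.1 were used.

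The members and lists were chosen with earlier results of these data known. Values were given for the 2 best ChIP ranked members of each family with an end summit in both lists. They were also given for the members with the most shared ChIP peaks (6 places, the last of them tied) and a fixed set of 10 genes known from T cell work. The 3 best end summits of 1 list only and the members nearest the 1 kb and 10 kb limits were added. Some others are marked as picked out after their values were seen. Further genes with values, such as Kmt5b, Kdm6a, Smarca5, Chd6 and Nsd3, fall outside these rules and carry no such mark. With 1 library per assay, no p-value is given. Marker genes of cell types other than CD8 T cells are not reported here.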

Additional observations from a re-analysis of the deposited data

How the results depend on the processing

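The counts were recomputed with end limits of 0.5 kb and 2 kb, the nearest gene alone, listed starts alone, the span alone, a margin of 50 kb, the stronger 0.5 of each list, a stricter ChIP q, and peaks with a raised background left out. Of 42 recomputed values, 8 could not change: 6 because no member peak had a raised background, and 2 because the stricter ChIP q does not touch the CUT&RUN list. Of the other 34, 28 stayed within 1.5 times of the count given (or, for the overlap, within its interval). With the stronger 0.5 of each list, 21 members had a ChIP end summit (30.0% against 12.8% of all genes) and 13 had one in both lists (18.6% against 8.33%). With the gene span alone, 37 members had a ChIP summit (52.9% against 22.4%), 38 a CUT&RUN summit (54.3% against 24.0%) and 32 both (45.7% against 16.2%). When the ChIP list was limited to a q of at most 1e-05, 82.1% of 78 member peaks overlapped a CUT&RUN peak. In all 31 recomputed counts of genes that could change, the members' share was 1.49 to 2.83 times that of all protein-coding genes. For listed starts, both shares were taken over genes with a promoter entry. The highest ratio, 2.83, was for both lists with the gene span alone. None of the backgrounds in this section was weighted to the members' spans, which are longer (median 51.7 kb against 17.2 kb). The part of gene length in these ratios was not tested. No paired analysis was possible because each assay had 1 library and no comparison rests on a test.

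Depth limits what can be seen: the lowest ChIP pileup at a member was 7 fragments, whose interval of 2.81 to 14.4 reaches above the members' median of 12, so the order of low peaks is not resolved. The 18 members without a promoter entry have no known strand here, and their end summits could not be placed at a start or an end of transcription. With no replicate library, the spread between mice or preparations is unknown, and expression was not measured.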
